A study of Mus musculus with 7 samples.

Results

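The RNA of mouse cells that had been sorted as haematopoietic stem cells and then kept for 48 h in culture with DMSO, the drug solvent, was examined in 3 libraries. These are the control libraries of a series of 7, chosen by the names of their columns in the deposited gene table, and the 2 libraries with gemcitabine at 0.5 µM (Gem) and the 2 with hydroxyurea at 100 µM (HU) were not used. All 7 were made from bone marrow of C57BL/6J mice of wild-type genotype. The sort took LSK cells, which lack lineage markers and carry Sca-1 and c-Kit, and kept those with CD150 and without CD48. The sources used here name neither the age nor the number of the mice, nor whether the libraries are from separate cultures, so the spread between them may be technical. The table lists 52224 genes in FPKM, the fragments per kilobase of transcript divided by the mapped fragments of the library, a scale on which levels can be compared between genes. With 1 group and n = 3, levels are described as mean ± SD over the libraries, called DMSO 1, DMSO 2 and DMSO 3, and no test between groups was made.

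Haematopoietic stem cells sit at the top of blood formation. They are largely quiescent in the marrow, where stem cell factor acts on its receptor c-Kit, and in culture they enter the cell cycle and form progenitors. Progenitors of the neutrophil, monocyte, basophil, eosinophil and megakaryocyte lineages are recognised by the granule proteins, receptors and transcription factors that they begin to make. In RNA from a whole culture, fewer cells of a type and less RNA per cell cannot be told apart.

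A gene was counted as varying when its highest and lowest library differed by at least 1 on the log2(FPKM + 1) scale, about 2-fold, at a mean of at least 5 FPKM. DMSO 3 stood apart in depth. Per-gene steps between low values gave an estimate of about 18800000 fragments in DMSO 1, 20200000 in DMSO 2 and 12400000 in DMSO 3, and fewer genes had a value above 0 in DMSO 3 (21251) than in DMSO 1 (22614) or DMSO 2 (23047). Over the 8112 protein-coding genes with a mean of at least 5 FPKM, DMSO 1 and DMSO 2 were the most alike pair: the SD of their difference on the log2(FPKM + 1) scale was 0.20, against 0.26 for DMSO 1 with DMSO 3 and 0.29 for DMSO 2 with DMSO 3. At that depth a transcript of 2000 bases at 5 FPKM rests on about 165, 178 and 108 fragments.

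Iron storage, lysosomal and innate immune genes led the profile, beside mitochondrial and ribosomal genes. Ftl1, the light chain of the iron store ferritin, was at 36247, 32578 and 43602 FPKM in DMSO 1, 2 and 3, and Fth1, its heavy chain, at 16077, 14467 and 21010. Both chains were highest in DMSO 3, and together they made up 6.64% ± 1.12 of the summed FPKM. Lyz2, lysozyme of macrophages and neutrophils, was at 25181, 21718 and 30761 FPKM. The values of Ftl1 and Lyz2 are uncertain, since 57.7% of the 31-base words of Ftl1 and 32.8% of those of Lyz2 also occur in other genes, chiefly the pseudogene Ftl1-ps1 and the paralog Lyz1. Other leading genes share words too, among them mt-Atp6 (99.5%), Eef1a1 (49.8%), Ly6c2 (23.7%) and Actb (23.5%). B2m, Tmsb4x, S100a8, Psap and Tyrobp share none. The 10 leading genes held 17.1%, 16.3% and 20.5% of the summed FPKM.

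**Figure D1:**
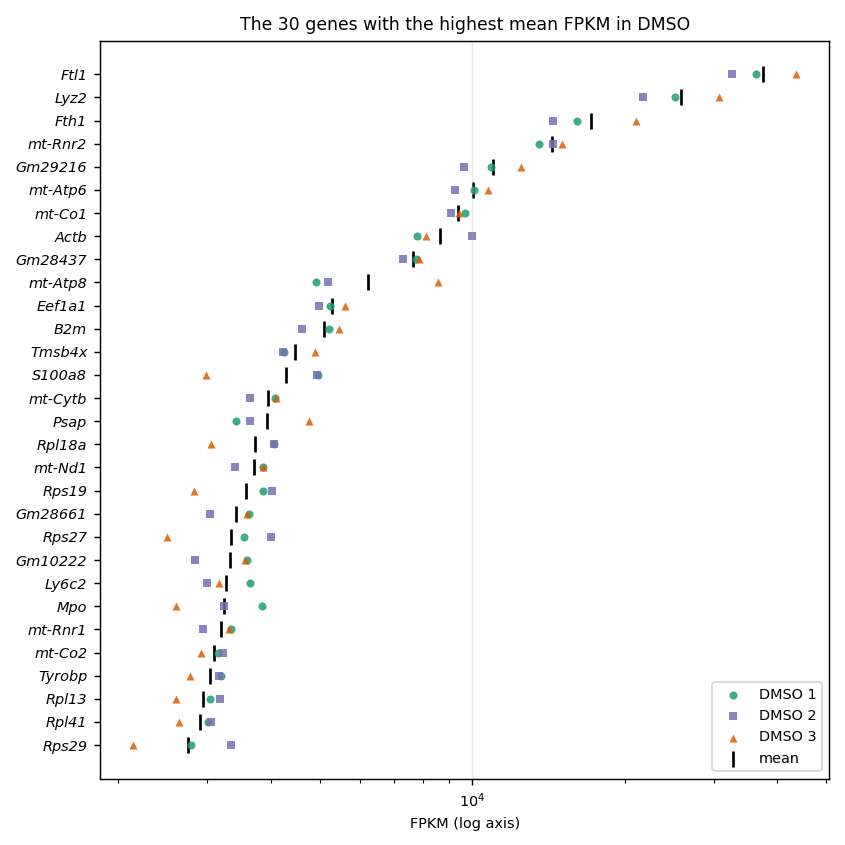
FPKM (log axis) of the 30 genes with the highest mean over the DMSO libraries. Points are DMSO 1, DMSO 2 and DMSO 3 and bars the mean; Ftl1, Lyz2 and Fth1 lead, and S100a8, Mpo and the ribosomal genes have their lowest point in DMSO 3.

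Of the 30 most abundant genes, 8 are encoded by the mitochondrial genome, 6 are ribosomal protein genes and 4 carry a predicted name. These 4, Gm29216, Gm28437, Gm28661 and Gm10222, are annotated as unprocessed pseudogenes on chromosome 1 between 24612407 and 24616197 (GRCm38, minus strand), a nuclear copy of mitochondrial genes. They share 97.2% to 100% of their 31-base words with mitochondrial genes, so their levels cannot be told from those of mt-Co1, mt-Co3, mt-Co2 and mt-Nd4l. The other 12 are Ftl1, Lyz2, Fth1, Actb, Eef1a1, B2m, Tmsb4x, S100a8, Psap, Ly6c2, Mpo and Tyrobp. Actb encodes cytoplasmic actin and was at 8621 ± 1189 FPKM. B2m, the light chain of MHC class I, was at 5098 ± 444 FPKM, and Tmsb4x, the actin-binding thymosin beta 4, at 4462 ± 378. Psap, the precursor of the lysosomal saposins, was at 3424, 3639 and 4756 FPKM, and Tyrobp, the signalling adaptor DAP12 of myeloid receptors, at 3041 ± 233. The 86 ribosomal protein genes held 12.1%, 13.1% and 10.3% of the summed FPKM, and 80 of the 83 with a mean of at least 5 FPKM were lowest in DMSO 3, where 44.4% of all protein-coding genes were lowest. None of the 83 was among the varying genes, near the share of 0.888% over all protein-coding genes. Under trimmed-mean scaling 77 of the 83 were still lowest in DMSO 3, against 3126 of all 8112 protein-coding genes.

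The label was checked on 30 genes of the sort and of stem cell identity. All 30 were in the table, 16 had a mean of at least 5 FPKM and 8 were under 1. Genes of the sort gave a mixed picture: Kit (c-Kit) was present, Slamf1 (CD150) was low, and Cd48, whose protein the sorted cells lacked, was high. Cd48 was at 223, 202 and 214 FPKM, and Slamf1 at 1.25, 1.13 and 0.41, with no overlap between the genes in any library. Both are receptors of the SLAM family and lie beside each other on chromosome 1 (GRCm38, plus strand), Cd48 at 171682009 to 171705258 and Slamf1 at 171767127 to 171801184. Kit, the receptor of stem cell factor, was at 43.3, 40.2 and 48.2 FPKM. Ly6a (Sca-1) was at 34.9, 34.3 and 48.3 FPKM, with 31.9% of its 31-base words shared with other genes.

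Stem cell genes ranged from abundant to near 0. Among the abundant, Cd34, a sialomucin of progenitors, was at 125, 128 and 117 FPKM, Adgrg1, the adhesion receptor GPR56, at a mean of 47.9, and Meis1, a homeobox cofactor of Hoxa9, at 35.7 ± 1.75. Ifitm3, an interferon-induced membrane protein, led the list at 473 FPKM, followed by Cd48, Cd34, Ifitm1 at 80.7 and Pdzk1ip1 at 73.1. Procr, the endothelial protein C receptor, was at 14.7, 10.1 and 17.0 FPKM, and Hoxa9 at 9.31 ± 0.481. Between 1 and 5 FPKM lay 6 members, among them Hlf, a factor of stem cells, at 3.68, 1.72 and 1.32. Members with a mean under 1 FPKM included Slamf1, Tek (the angiopoietin receptor) at 0.497, Mecom (a zinc finger factor of long-term stem cells) at 0.45, 0.18 and 0.34, Hoxb5 at 0.183, Robo4 at 0.03 and Fgd5 at 0.0233. Tcf15 was listed at 0 in all 3 libraries. The cells are therefore called here by how they were sorted and cultured, since several genes that define long-term stem cells were near 0. None of the 16 members with a mean of at least 5 FPKM varied, near the share of 0.888% over all protein-coding genes. Gata2 came closest at 28.6, 30.8 and 15.2 FPKM.

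Myeloid lineage genes were abundant. Of 28 neutrophil granule genes, 21 had a mean of at least 5 FPKM and 14 of at least 100. S100a8 and S100a9, which form calprotectin, were at 4954, 4931 and 2990 FPKM and at 2793, 2695 and 1730 FPKM. Proteases and peroxidase of the primary granules were also abundant: Mpo (myeloperoxidase) was at 3856, 3245 and 2602 FPKM, Elane (neutrophil elastase) at 2356, 2058 and 1161, Ctsg (cathepsin G) at 1938, 1738 and 1508, and Prtn3 (proteinase 3) at 1144, 1192 and 686. DMSO 3 was the lowest library for each of these 6 genes and for 16 of the 21, against 44.4% of all protein-coding genes. Genes of the secondary granules split: Ngp (neutrophilic granule protein) was at 1064, 1110 and 582 FPKM and Lcn2 (lipocalin 2) at 204 ± 4.23. Retnlg and Ly6g, which mark mature neutrophils, were at a mean of 4.75 and 0.55 FPKM.

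All 30 monocyte and macrophage genes had a mean of at least 1 FPKM, and 18 of at least 100. The leading members were Psap, Ly6c2 (the monocyte antigen Ly6C, 3269.8 ± 332 FPKM), Ctsd (cathepsin D, 2532 ± 173), Ctsb (cathepsin B, 1101 ± 84.1) and Lgals3 (galectin 3, 1089.98 ± 179). C1qa, a complement gene of tissue macrophages, was at 2.48 FPKM. Of the 20 genes of dendritic cells and antigen presentation, 6 reached a mean of 100 FPKM, with Cd74, the invariant chain of MHC class II, at 386 ± 65.1 and the class II chains H2-Ab1 at 233, H2-Aa at 197 and H2-Eb1 at 111 ± 13.4. H2-DMa, which loads peptides on them, was at 161 ± 25.2.

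Single granule genes of basophils and eosinophils were abundant, but most members of these lists were not. Of 20 mast cell and basophil genes 4 had a mean of at least 100 FPKM and 8 were under 1, and of 10 eosinophil genes 1, Prg2, reached 100. Srgn, the granule proteoglycan serglycin that many blood cells make, was at 587 ± 83.9 FPKM. Prg2, the major basic protein of eosinophil granules, was at 819, 1259 and 701 FPKM. Prss34 (the basophil protease MCPT11) was at 299, 756 and 121 FPKM and Mcpt8 (the basophil protease MCPT8) at 126, 316 and 54.8. Genes of connective tissue mast cells were near 0: Cma1 was at a mean of 0.02 FPKM, Mcpt4 at 0.0167, Tpsb2 at 0.0567 and Tpsab1 at 0.01. The eosinophil granule gene Epx was at a mean of 6.81 FPKM, and the eosinophil receptors Siglecf, Il5ra and Ccr3 were at 4.19, 0.597 and 0.0267 FPKM.

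Of 25 megakaryocyte and platelet genes, 21 had a mean of at least 5 FPKM. Pf4 (platelet factor 4) was at 2398, 2446 and 1529 FPKM, Itga2b (integrin alpha IIb, the platelet fibrinogen receptor) at 128, 139 and 98.1, and Vwf (von Willebrand factor, also a mark of platelet-biased stem cells) at 28.9, 35.4 and 20.9. DMSO 3 was lowest for these 3 and for 16 of the 21, against 44.4% of all protein-coding genes. Thbs1 (thrombospondin 1) went the other way at 185, 199 and 245, and Plek (pleckstrin) was at 108 ± 5.83. Of 23 erythroid genes, 8 had a mean of at least 5 FPKM and 1 of at least 100, Blvrb (biliverdin reductase B) at 357 ± 28.9. Tfrc, the transferrin receptor of all dividing cells, was at 41.5 ± 6.88, Hbb-bt at 34.3, 36.8 and 20.4 and Car2 (carbonic anhydrase) at 22.1 ± 0.417. The globins Hbb-bs, at 9.71, 27.4 and 9.08, and Hba-a1, at 5.43, 13.4 and 8.33, varied and were highest in DMSO 2, and 54.4% of the 31-base words of Hbb-bs occur in other genes, chiefly Hbb-bt. Of 14 B cell genes 9 were under 1 FPKM, and of 21 genes of T, NK and innate lymphoid cells 14 were, Cd3e among them at 0.22. Exceptions with a mean of at least 5 FPKM in the B cell list were Ptprc (CD45) at 119 FPKM, Ighm at 90.7, Cd79b at 25.0 and Blnk at 5.04. In the other lymphoid list they were Nkg7, a cytotoxic granule gene, at 78.1, 58.4 and 41.7, and Il7r, given below with the receptors. Which cells made this RNA was not tested. Of 18 stromal and endothelial genes, 15 were under 1 FPKM, and the other 3 were Spp1 (osteopontin), Vcam1 at 36.0 and Pecam1 at 34.1.

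Receptors of macrophage colony-stimulating factor, interferons and tumour necrosis factor led the cytokine receptor genes. Of 58 cytokine and growth factor receptors, 34 had a mean of at least 5 FPKM and 6 of at least 100. Csf1r, the receptor of macrophage colony-stimulating factor, was the highest at 254, 263 and 299 FPKM. It was followed by Ifngr1 (interferon gamma) at 247 ± 6.47, Tnfrsf1b (tumour necrosis factor) at 216 ± 9.2, Csf2ra (GM-CSF) at 177 ± 5.8 and Ifnar2 (type I interferon) at 138 ± 2.98. No neighbours among these leading 5 overlapped between libraries. Lower in the order, Il2rg (the common gamma chain) at 89.2, Tnfrsf1a at 80.7 and Csf2rb (the common beta chain) at 79.3 overlapped and were not ordered. Csf3r, the receptor of G-CSF, was at 62.3 ± 7.11 FPKM.

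Receptors of early and of other lineages were lower. Il3ra, of interleukin 3, was at a mean of 19.6 FPKM, Il7r at 10.5, Flt3 at 5.60 and Epor, the erythropoietin receptor, at 2.50. Pdgfra, of stromal cells, was at 0.0133. Only Il18rap, a chain of the interleukin 18 receptor, varied among the 34 receptors with a mean of at least 5 FPKM, at 5.72, 7.83 and 3.31. Il18rap reached that mean only through DMSO 2. Of all 8777 genes at that level 2.52% varied, and of the protein-coding ones 0.888%.

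Of 49 G protein-coupled receptors, 26 had a mean of at least 5 FPKM. Ccr2, the chemokine receptor of inflammatory monocytes, was the highest at 131, 130 and 109 FPKM. Adgre1, which encodes the macrophage antigen F4/80, was at 93.4, 99.8 and 118, overlapping with Ccr2 between libraries. Ptafr, of platelet-activating factor, was at 86.5 ± 7.62, Adgrg3 at 83.0 and Cx3cr1, the fractalkine receptor, at 57.7, 56.5 and 91.6. Cxcr4, which holds stem cells in the marrow, was at 15.2 FPKM. Cxcr2, a receptor of Cxcl1 and Cxcl2 on neutrophils, varied at 9.01, 7.36 and 3.89 and was lowest in DMSO 3.

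Adhesion receptors were more abundant. Of 46, 37 had a mean of at least 5 FPKM, led by the tetraspanins Cd63 at 1385 ± 14, Cd9 at 586 ± 15.3 and Cd53 at 424 ± 8.73, then Selplg (the selectin ligand PSGL-1) at 318 ± 38.4 and Itgb2 (the beta chain of leukocyte integrins) at 276 ± 32.1. The platelet receptors Gp9, at 29.9, 32.9 and 15.2, and Clec1b (CLEC-2), at 14.9, 11.9 and 5.06, varied and were lowest in DMSO 3. Of 54 Fc, lectin, scavenger and pattern receptors, 42 had a mean of at least 5 FPKM and 16 of at least 100. After Ly6c2 and Tyrobp came Fcer1g, the gamma chain shared by Fc receptors, at 2156 ± 147, Ly6e at 1244 ± 107 and Cd52 at 905 ± 49.9.

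**Figure D2:**
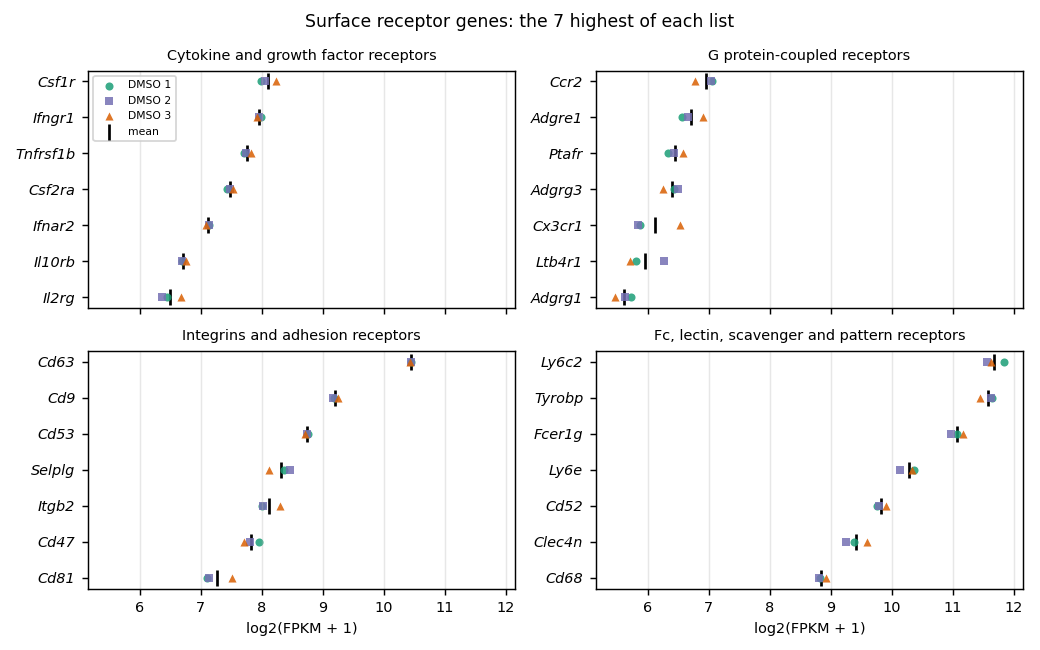
Levels as log2(FPKM + 1) of the 7 most abundant genes of each receptor list, with a point for each of DMSO 1, DMSO 2 and DMSO 3. Csf1r leads the cytokine receptors and Ccr2 the G protein-coupled receptors, and for most receptors the 3 points lie close together.

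Ligands of these receptors were uneven. Of 69 cytokines, chemokines and other ligands, 32 had a mean of at least 5 FPKM, and Pf4 led, followed by the chemokines Ccl5 at 142 ± 20.7, Ccl3 at 114 ± 25.4 and Ccl9 at 104 ± 26.3. Kitl, the ligand of Kit, was at 0.163 FPKM, Csf1, the ligand of Csf1r, at 1.37, and Il3, which encodes interleukin 3, was listed at 0 in all 3 libraries. Csf3, which encodes G-CSF, was listed at 0 in DMSO 1 and DMSO 2 and at 5.33 FPKM in DMSO 3. Flt3l, the ligand of Flt3, was at 8.57, 5.72 and 3.84 FPKM, and Ptgds, a prostaglandin D synthase, varied at 9.51, 6.05 and 3.59.

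The highest transcription factors of the 4 lineage lists were those of granulocytes and monocytes. Of 41, all had a mean of at least 1 FPKM and 31 of at least 5. Irf8, which directs monocyte and dendritic cell fate, was at 313, 313 and 276 FPKM, and Spi1 (PU.1, the master factor of myeloid cells) at 254, 255 and 252. The pair did not overlap, and Id2 at 107 ± 10.8, Klf13 at 98.5 and Irf5 at 90.8 ± 2.06 came next. Cebpa and Cebpe, of granulocyte precursors, were at 14.4 and 26.5 FPKM, and Gfi1, a repressor needed to form neutrophils, at 1.63. Irf2 varied and was lower in DMSO 1, at 7.71, 17.7 and 16.3.

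Of 31 stem and progenitor factors, 18 had a mean of at least 5 FPKM. None of these varied, near the share of 0.888% over all protein-coding genes. Myc was at 95.9 ± 8.91 FPKM, Lyl1 at 90.2 ± 7.17, Fli1 at 54.9 ± 2.86, Myb at 47.0 ± 2.69 and Lmo2 at 44.1 ± 1.13. Of 17 erythroid and megakaryocyte factors, 12 had a mean of at least 5 FPKM, including Mafg at 91.5 ± 7.04, Nfe2 at 103, 93.0 and 74.2 and Mef2c at 41.5 ± 0.741. Gata1, the master factor of red cells and megakaryocytes, was at 25.9, 27.1 and 19.7 FPKM, while Klf1, an erythroid factor, was at 1.22.

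Of 20 lymphoid factors, 14 were under 1 FPKM. Only Tcf3 at 24.5 ± 2.39 and Tcf4 at 17.2 ± 1.32, both E proteins, had a mean of at least 5, then Zbtb16 at 2.71, Spib at 1.34, 2.56 and 4.23 and Gata3 at 2.60. Ebf1 and Pax5, of B cells, were at 0.123 and 0.02. Factors that respond to signals included Xbp1, of the unfolded protein response, at 229.8 ± 17.9, Trp53 (p53) at 151 ± 14.2, Atf4 at 141 ± 11, Nfe2l2 (NRF2) at 123 ± 15.6 and Myc. The NF-kB subunits Rela and Nfkb1 were at 48.4 ± 1.76 and 32.7 FPKM. No member of this list with a mean of at least 5 FPKM varied, near the 0.888% of all protein-coding genes.

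**Figure D3:**
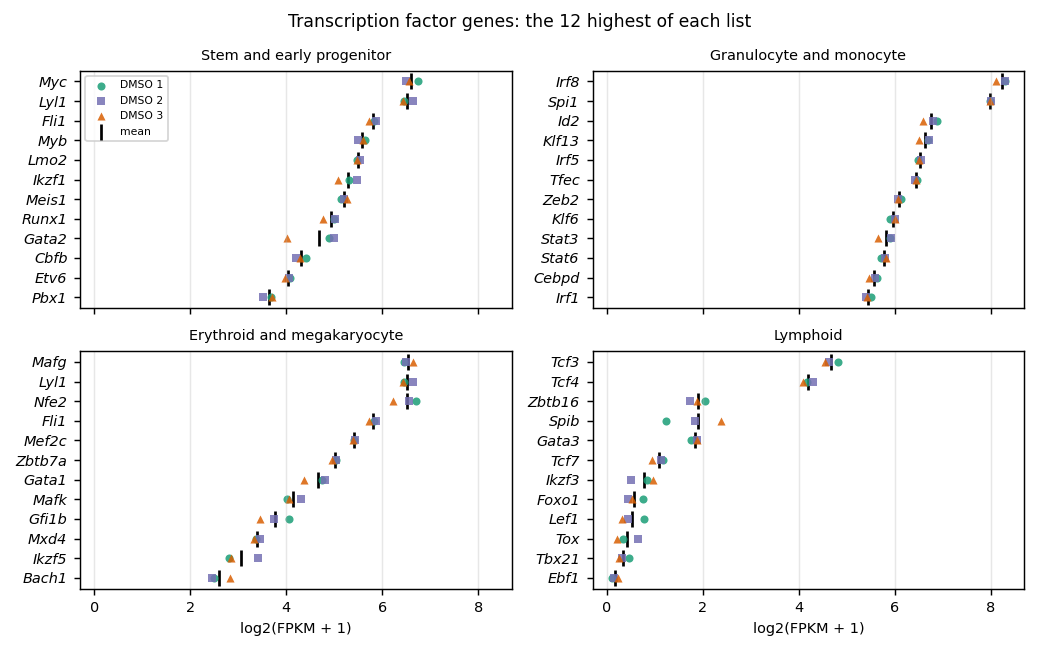
Levels as log2(FPKM + 1) of the 12 most abundant genes of each of 4 transcription factor lists, with a point for each DMSO library and a bar for the mean. Irf8 and Spi1 lead the granulocyte and monocyte factors, and 2 lymphoid factors, Tcf3 and Tcf4, stand above the other lymphoid factors.

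Cell cycle genes were expressed in all 3 libraries. Of 37 proliferation genes, 35 had a mean of at least 5 FPKM, led by Cdk4 (a kinase of the G1 phase) at 251 ± 18.8, Pcna (the clamp of DNA polymerase) at 212, 171 and 219, Ccnd3 at 179 and the helicase subunits Mcm6 at 163 and Mcm3 at 156. Ccnb1, of mitosis, was at 61.1 ± 4.28 and Mki67 at 11.6 ± 0.508. None varied. DMSO 3 was highest for 19 of the 35 and lowest for 14, against 30.2% and 44.4% of all protein-coding genes, and DMSO 2 was lowest for 21, against 31.6%.

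The libraries differed in 221 of the 8777 genes with a mean of at least 5 FPKM. Of these, 149 are not protein coding, 77 of the 149 were at 0 in at least 1 library, and 86 of the 140 with a known length are under 200 bases, a length at which FPKM is poorly determined. Mir705, the most varying gene with an established name, was listed at 0, 58.95 and 0 FPKM. The genes nearest to it over the libraries, led by Snord7 and the pseudogene Rpl30-ps9, were highest in DMSO 2 by the way they were picked. The other 72 varying genes are protein coding, and for 48 of them (66.7%) DMSO 3 was the library apart, low in 34 (0.419% of the protein-coding genes at this level) and high in 14 (0.173%). DMSO 2 was apart for 17, high in 15 (0.185%) and low in 2 (0.0247%), and DMSO 1 for 7, high in 4 (0.0493%) and low in 3 (0.037%). Some high genes reached a mean of 5 FPKM only through their high library, so the filter itself favours the counts of high genes. Among them were Msantd2, at 4.82, 8.75 and 3.54 FPKM, and Smpdl3b, at 4.48, 2.9 and 9.4. Over all 8112 protein-coding genes, whatever their range, the highest library was DMSO 1 for 35.6%, DMSO 2 for 34.2% and DMSO 3 for 30.2%, and the lowest was DMSO 1 for 23.9%, DMSO 2 for 31.6% and DMSO 3 for 44.4%. The counts of 221 and 72 were 104 and 18 without DMSO 3 and 133 and 40 without DMSO 2. Just inside the threshold lay Gpr84 and Tut4, with a range of 1.01, and Ms4a4a at 1.00, and just outside Alox5 at 0.998, Gpr19 at 0.996 and Il1rn at 0.995.

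**Figure D4:**
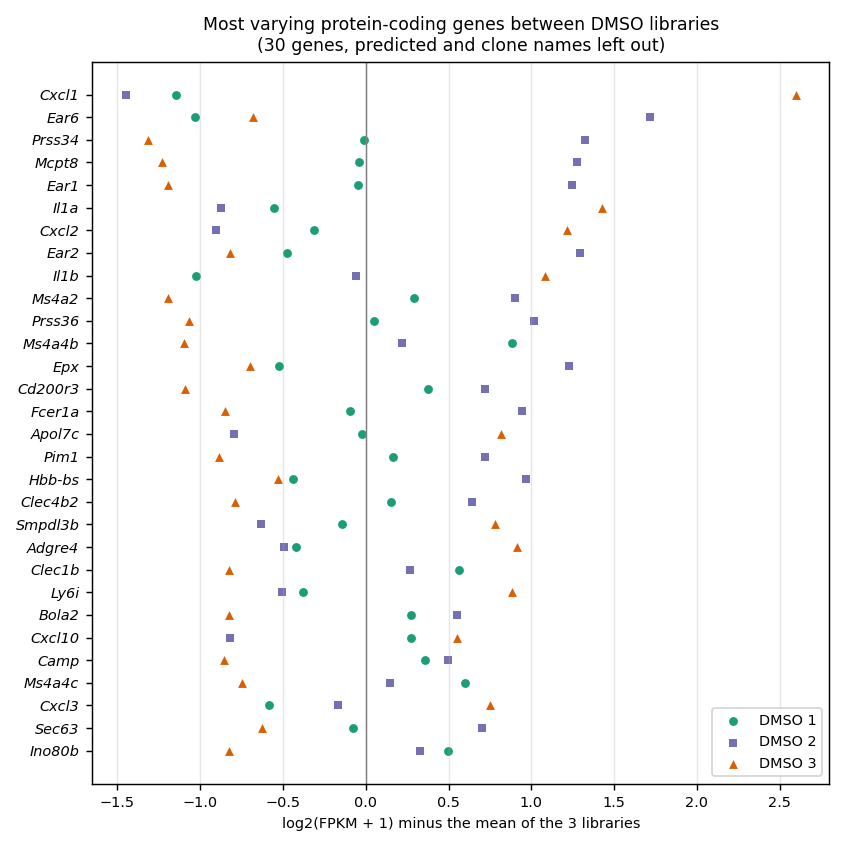
The 30 protein-coding genes with the largest range between DMSO libraries once predicted and clone names (Gm11032, G530012D18Rik, Gm20390) are left out, as log2(FPKM + 1) minus the gene's mean over the libraries. DMSO 2 is highest for Prss34, Mcpt8, Ear1, Ear2, Ear6 and Epx, and DMSO 3 for Cxcl1, Il1a, Cxcl2, Il1b and Cxcl3.

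The varying basophil genes, and eosinophil genes with a mean of at least 5 FPKM, were highest in DMSO 2. Among 10 mast cell and basophil genes with a mean of at least 5 FPKM, 6 varied. The same 6 were highest in DMSO 2, where 34.2% of protein-coding genes were highest, 3 were highest in DMSO 1 and 1 in DMSO 3. No member that did not vary was highest in DMSO 2, and 8 of the 10 were lowest in DMSO 3, against 44.4% of protein-coding genes. The varying members were the proteases Prss34, Mcpt8 and Cpa3 (carboxypeptidase A3, at 115, 154 and 71.2 FPKM), the IgE receptor chains Fcer1a at 50.4, 104 and 29.5 and Ms4a2 at 16.5, 25.7 and 5.24, and Cd200r3 at 13.3, 17.1 and 4.17. The order DMSO 2, DMSO 1, DMSO 3 was the same in these 6 genes. The range on the log2(FPKM + 1) scale was 2.64 for Prss34 and 2.51 for Mcpt8. Hdc, the histamine-forming enzyme, was at 32.0, 30.6 and 20.2 FPKM and did not vary by this rule.

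All 6 eosinophil genes with a mean of at least 5 FPKM were highest in DMSO 2 and 5 varied, where 34.2% of protein-coding genes were highest in DMSO 2 and 0.888% varied. Epx (eosinophil peroxidase) was at 3.46, 14.03 and 2.95 FPKM, Prg3 (a paralog of Prg2) at 29.3, 61.4 and 27.9, and the eosinophil ribonucleases Ear1 at 5.54, 15.0 and 1.95, Ear2 at 2.96, 12.5 and 2.12 and Ear6 at 1.48, 15.7 and 2.16. Here DMSO 1 and DMSO 3 were close and DMSO 2 apart, except that Ear1 was spread over all 3. Epx, Ear2 and Ear6 were under 5 FPKM in DMSO 1 and DMSO 3, and Ear1 was under 5 FPKM in DMSO 3. These genes reached a mean of 5 FPKM only through DMSO 2, so the filter itself favours their place in the counts above. Only Prg2 and Prg3 were above 5 FPKM in every library. Of the 31-base words, 73.6% in Ear1 and 60.5% in Ear2 occur in other genes, so reads of these ribonucleases may be divided between paralogs. The genes whose values over the libraries lay nearest to those of Prss34, by Euclidean distance of centred log2(FPKM + 1), were Mcpt8, Ear1, Prss36, Ms4a2, Fcer1a, Ear2, Cd200r3, Pim1, Epx and Clec4b2. Pim1, a kinase induced by cytokines, was at 35, 51.8 and 16.3 FPKM.

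Inflammatory genes were highest in DMSO 3. Of 32 genes of the NF-kB and inflammatory list with a mean of at least 5 FPKM, 24 were highest in DMSO 3, where 30.2% of protein-coding genes were highest, and 6 varied. Cxcl1, a chemokine that draws neutrophils, was at 0.32, 0.07 and 16.7 FPKM, with a range of 4.05. Among protein-coding genes, only Gm11032, a predicted gene listed at 17.44, 0 and 0 FPKM, had a larger one, 4.20. Il1a and Il1b, which encode interleukin 1, were at 4.67, 3.53 and 21.4 FPKM and at 3.66, 8.08 and 19.0. Cxcl2 and Cxcl3, paralogs of Cxcl1, were at 14.3, 9.11 and 42.9 and at 4.82, 6.77 and 13.7, and Ccl4 at 53.1, 57.2 and 117. Each of the 6 was highest in DMSO 3, while DMSO 1 and DMSO 2 changed places from gene to gene. Cxcl1 and Il1a were under 5 FPKM in DMSO 1 and DMSO 2. They reached a mean of 5 FPKM only through DMSO 3, so the filter itself favours their place in the counts above.

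Other members of the list differed less. Sod2, the mitochondrial superoxide dismutase, was at 316, 271 and 345 FPKM, Acod1 (the itaconate-forming enzyme of macrophages) at 193, 171 and 249, Nfkbia (the NF-kB inhibitor) at 179, 169 and 209, Tnf at 50.2, 42.1 and 62.4 and Saa3 at 107, 134 and 171. Zfp36, which destabilises cytokine RNA, was lowest in DMSO 3, at 13.1, 11.6 and 10.1. The genes nearest to Cxcl1 over the libraries were Il1a, Cxcl2, Il1b, Adgre4 and Ly6i, the last a member of the Ly6 family at 24.2, 22.1 and 59.4 FPKM.

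Cxcl1 (90891241 to 90893115), Cxcl2 (90903871 to 90905938) and Cxcl3 (90786103 to 90789600) lie on the plus strand of chromosome 5 (GRCm38) in the same cluster as Pf4 (90772435 to 90773383) and Ppbp (90768518 to 90770063), platelet chemokines. The neighbours went opposite ways: Ppbp was at 109, 125 and 50.9 FPKM and, with Pf4, lowest in DMSO 3. Upstream windows are printed for Cxcl1 and Cxcl3, paralogs that were both highest in DMSO 3, for Prss34, the basophil gene with the largest range, and for Ms4a2, chosen because it holds the most GATA matches. Each window is the 250 bases before the gene's start in RefSeq (GRCm38.p6), 5′ to 3′ on the gene's strand. Capitals mark the Rel motif of NF-kB factors (GGG and TTTCC with 2 bases of any kind between them) in the Cxcl genes, and AGATAA, bound by GATA factors, in the basophil genes, searched on both strands. The windows are chr5:90890995-90891244 (plus) for Cxcl1, chr5:90785851-90786100 (plus) for Cxcl3, chr17:25298144-25298393 (plus) for Prss34 and chr19:11623720-11623969 (minus) for Ms4a2.
Cxcl1: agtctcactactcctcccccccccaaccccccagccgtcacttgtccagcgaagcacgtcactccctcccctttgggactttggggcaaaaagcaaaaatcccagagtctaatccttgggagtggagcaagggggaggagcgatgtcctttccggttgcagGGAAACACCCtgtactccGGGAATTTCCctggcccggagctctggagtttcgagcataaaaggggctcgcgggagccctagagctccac
Cxcl3: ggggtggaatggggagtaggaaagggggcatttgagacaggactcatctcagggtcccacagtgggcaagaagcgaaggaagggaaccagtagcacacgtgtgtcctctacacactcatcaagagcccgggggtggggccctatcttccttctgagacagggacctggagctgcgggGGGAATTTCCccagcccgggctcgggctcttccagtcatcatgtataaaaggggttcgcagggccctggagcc
Prss34: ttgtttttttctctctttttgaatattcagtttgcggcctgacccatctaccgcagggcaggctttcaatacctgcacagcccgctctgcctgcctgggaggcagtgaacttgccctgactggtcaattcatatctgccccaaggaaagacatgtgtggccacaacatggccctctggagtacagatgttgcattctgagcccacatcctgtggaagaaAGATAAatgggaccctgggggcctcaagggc
Ms4a2: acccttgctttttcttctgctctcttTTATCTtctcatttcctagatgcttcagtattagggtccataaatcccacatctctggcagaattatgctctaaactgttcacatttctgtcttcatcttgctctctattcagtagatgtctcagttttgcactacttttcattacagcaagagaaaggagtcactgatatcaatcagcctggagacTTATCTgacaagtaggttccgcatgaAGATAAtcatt
The Rel match occurred 89 and 71 bases before the start of Cxcl1, 73 before that of Cxcl3 and 97 and 78 before that of Cxcl2, and 1.41% of all 32851 such windows hold it. The windows of Il1a and Il1b, nearer to Cxcl1 in pattern than Cxcl3, do not hold it. The GATA match occurred 31 bases before the start of Prss34, 224, 37 and 11 before that of Ms4a2 92 before that of Fcer1a and 39 before that of Cd200r3, and 9.99% of all windows hold it. The window of Mcpt8, next in range after Prss34 among the basophil genes, does not hold it. It also occurred in the windows of Hbb-bs and Cxcl10, outside the basophil list. Of the 29 genes with a window among the 30 plotted varying genes, 3 hold the Rel match and 6 the GATA match. An AP-1 motif (TGANTCA) and a C/EBP motif (TTGC and AA with 2 bases between them) were searched too: 3 and 7 of the 29 hold them, against 6.75% and 9.56% of all windows. A match is a description of these letters and not a measured binding site.

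Most neutrophil granule and platelet genes were lowest in DMSO 3, where 44.4% of all protein-coding genes were lowest. The varying granule genes were Elane, with a range of 1.02, Camp (cathelicidin) at 116, 128 and 49.4 FPKM and Ltf (lactoferrin) at 21.6, 48.1 and 39.9, the last lowest in DMSO 1. Against them, Lyz2 and Cybb, the oxidase subunit of phagocytes (373, 328 and 511 FPKM), were highest in DMSO 3. Among megakaryocyte genes Ppbp, Gp9 and Clec1b varied, all lowest in DMSO 3, and Spp1 varied among monocyte genes, at 120.3, 54.3 and 88.0. The depth of DMSO 3 was the lowest, and gene lists went both ways in it. Most neutrophil granule and platelet genes were lowest there, and most inflammatory genes highest. The part of depth or of cell composition in these differences was not tested.

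**Figure D5:**
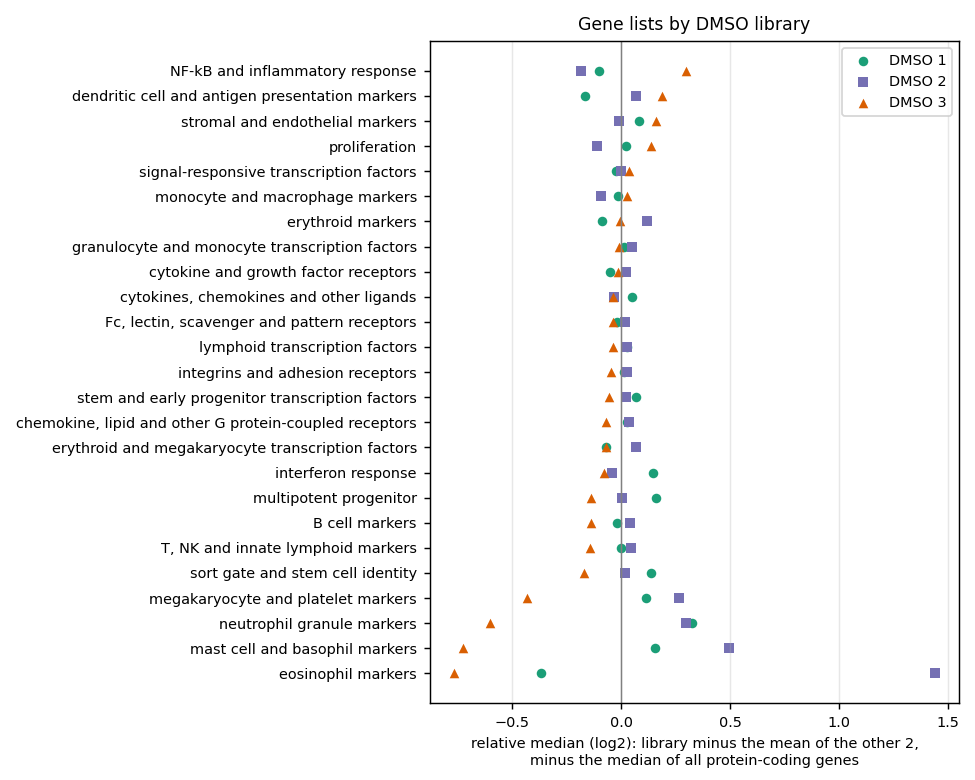
For each gene list, the median over members with a mean of at least 1 FPKM of the difference on log2(FPKM + 1) between a library and the mean of the other 2, less the same median over all protein-coding genes, 1 point per library. Eosinophil genes reach 1.44 in DMSO 2, neutrophil granule genes are at -0.60 and NF-kB and inflammatory genes at 0.30 in DMSO 3, while receptor and transcription factor lists lie near 0.

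The lists set against each other show how wide these shifts were. Each library was set against the mean of the other 2 on the log2(FPKM + 1) scale, for members with a mean of at least 1 FPKM, and the median over all protein-coding genes was subtracted. The differences of a gene are tied to each other, so a high value in 1 library makes those of the other 2 lower. The median difference was -0.37, 1.44 and -0.77 in DMSO 1, 2 and 3 for eosinophil genes and 0.16, 0.49 and -0.73 for mast cell and basophil genes. It was 0.33, 0.30 and -0.60 for neutrophil granule genes, 0.11, 0.27 and -0.43 for megakaryocyte genes and -0.10, -0.18 and 0.30 for inflammatory genes. Monocyte genes, the most abundant lineage list by count of members above 100 FPKM, had medians of -0.02, -0.09 and 0.02. The counts of members highest or lowest in a library stayed within 1 of those given under trimmed-mean scaling for the eosinophil, basophil, neutrophil, megakaryocyte and inflammatory lists. The shares over all genes, which are given as deposited, moved more. Of the 8112 protein-coding genes, DMSO 3 was highest for 2451 as deposited and 3010 under that scaling, and lowest for 3604 and 3126.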

How the data were processed

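The authors deposited 1 table of FPKM for 52224 genes, per the file header, and the values of the 3 DMSO libraries were used as deposited. The build mm10 and the tools Cufflinks 2.1.1, Bowtie 0.12.9, DESeq2 and HTSeq are listed without roles in the submitters' processing notes. Per the labels' protocols, a miRNeasy kit gave the RNA, Geo-seq amplification the complementary DNA and a TruePrep kit the libraries. Which tool made the FPKM values, the annotation and whether reads carry strand are not named in the sources here, so overlapping antisense genes are not told apart. Amplification of small inputs adds spread to low values.

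Analyses ran in Python 3.11.15 with pandas 2.3.3. Gene types, lengths and coordinates came from GENCODE M21, matched by symbol for 48307 genes (92.5%). Ranges are on log2(FPKM + 1), with a pseudocount of 1. On simulated data with 200 of 8777 genes changed 4-fold in 1 library, 100% were recovered. The simulated noise had an SD of 0.1 in log2 at every level, set without regard to the spread of these libraries. A 4-fold change passes the threshold under such noise by construction, so this checks the code and not the power to find real differences. Depth was estimated from steps of low values in genes with 1 exon and 1 transcript. In genes held out from that estimate, 75.6%, 77.5% and 74.5% of low values lay within 0.1 of a whole number of fragments, where a step unrelated to the values gives 20%. Such fragments can be copies of 1 molecule.

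The rule for named genes took the 30 most abundant, the 5 highest and every varying member of each of 25 lists, defining markers near 0, the 30 most varying genes without predicted or clone names and the 10 nearest in pattern; small RNA genes and low members it took are given by counts. The lists and members were chosen with earlier results of these data known. Of those 30 varying genes only Cxcl1 is protein coding, so the 30 most varying protein-coding genes (again without predicted names), the patterns near Prss34 and Cxcl1, other list members and the motif search were chosen after values were seen.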

Additional observations from a re-analysis of the deposited data

How the results depend on the processing

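The count of 221 varying genes was 688 at a mean of at least 1 FPKM, 1154 with no filter, 123 at a mean of at least 10 and 72 over protein-coding genes only. Without each library in turn it was 104 to 174. The count of 72 protein-coding genes was 193, 269 and 42 under the same filters and 18 to 53 without each library: 40 without DMSO 2 and 18 without DMSO 3. The share of varying genes with DMSO 3 apart, 54.3% of all and 66.7% of protein-coding genes, was 44.9% and 51.8% at a mean of at least 1 FPKM. Other genes or fewer libraries enter these counts by construction. Of the 30 named protein-coding genes, 28 kept a range of at least 1 without DMSO 1, 20 without DMSO 2 and 9 without DMSO 3, and all 30 did with a pseudocount of 0.1, on the TPM scale and with trimmed-mean scaling. The count of 8777 genes ranged from 8708 to 8825 and the share of the 10 leading genes from 16.7% to 18.8% without each library. No paired analysis was possible because there is 1 group and no test. The estimated depth, lowest in DMSO 3, limits genes near 5 FPKM most.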

Other observations

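Of 29 interferon response genes, 13 had a mean of at least 5 FPKM and 2 varied, 0.888% being the share over all protein-coding genes. Bst2 (tetherin) led the list at 107 ± 6.39 FPKM, and the list also held Irf9 at 19.1, Stat2 at 13.3 and Oas1a at 11.9. Cxcl10, an interferon-induced chemokine, was at 9.45, 3.9 and 11.7 FPKM in DMSO 1, 2 and 3, and Xaf1 at 4.77, 7.31 and 2.99. Xaf1 reached a mean of 5 FPKM only through DMSO 2. Ptgs2, which encodes cyclooxygenase 2, was at 0.65, 0.22 and 9.67 FPKM and lay under the level needed to be counted, as did Csf3. The mitochondrial gene mt-Nd3 was a varying gene with DMSO 1 apart, at 315, 151 and 164 FPKM. Of 16 genes of multipotent progenitors, 13 had a mean of at least 5 FPKM and none of them varied, near that share of 0.888%.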
